A study of Homo sapiens with 6 samples.

Results

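The ERBB receptors and their negative regulators were examined by RNA-seq in OVCAR3, an established line from human ovarian cancer, in 3 libraries with shNC and 3 with shNUF2. The 8 genes were taken by symbol from the 19973 genes in the deposited table. They comprise the receptors EGFR, ERBB2, ERBB3 and ERBB4, and the regulators ERRFI1, LRIG1, LRIG3 and RNF41. All 8 passed the filter on low counts, which left 12874 genes for testing. The shNC group was labelled WT and received a control hairpin. The shNUF2 group was labelled as NUF2 knockdown and received 1 hairpin against NUF2, a kinetochore component needed for spindle attachment. Both groups were transfected with a plasmid that carries a U6-driven hairpin and a puromycin resistance gene, and stable cells were obtained by puromycin selection. The labels do not say whether the libraries of a group came from separate transfections or cultures, so the p-values measure only the spread between these libraries. The comparison asked how the receptors and the genes that restrain them differed at the RNA level when NUF2 was silenced.

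ERBB receptors are tyrosine kinases at the cell surface that pair with each other when a ligand binds, and then pass signals to the PI3K-AKT and RAS-ERK pathways. ERBB2 has no known ligand of its own and serves as a partner for the others, whereas ERBB3 binds neuregulins but has a weak kinase and depends on a partner to become phosphorylated. Several proteins limit these receptors: ERRFI1 (MIG6) binds the kinase domain and blocks it, LRIG1 promotes removal of the receptors from the surface, and RNF41 (NRDP1) is a ubiquitin ligase that marks ERBB3 for degradation. LRIG3 is a relative of LRIG1 whose effect on the receptors is less settled.

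The receptors differ in the catalytic loop of the kinase domain, which is shown because its marked codon sets ERBB3, the receptor whose transcript fell most, apart from the others. The 24 bases below are from the transcripts of GENCODE release 29 on GRCh38, on the strand of each gene, and the capitals mark the codon of the catalytic base, which is the third codon of the run.
EGFR: caccgcGACctggcagccaggaac
ERBB2: cacaggGACttggccgctcggaac
ERBB3: catagaAACctggctgcccgaaac
ERBB4: catcggGATttggcagcccgtaat
These runs lie in the coding sequence of exon 21 of each transcript, at chr7:55191752-55191775 on the plus strand for EGFR, chr17:39725082-39725105 on the plus strand for ERBB2, chr12:56097818-56097841 on the plus strand for ERBB3 and chr2:211431044-211431067 on the minus strand for ERBB4. Counted from 1 at the 5′ end of the run, ERBB3 differed from EGFR within the marked codon by G7A, which turns aspartate into asparagine. ERBB4 differed there by C9T, which keeps aspartate, and ERBB2 had the codon of EGFR. Receptors dock the regulatory subunit of PI3K by a motif of a tyrosine, any 2 residues and a methionine. After the loop, the protein encoded by ERBB3 has 7 matches to it, against 1 in EGFR, 1 in ERBB2 and 2 in ERBB4. These counts cover all residues after the loop, including the rest of the kinase domain. A match describes the letters alone, and not every match is a docking site.

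The hairpin sequence is shown because it defines the treated group and can be compared with the transcripts of the receptors and regulators. The target and the guide strand complementary to it are each 21 bases long, and the capitals in the guide mark its seed, bases 2 to 8.
shNUF2 target: cttcttaccattcagcaattt
shNUF2 guide: aAATTGCTgaatggtaagaag
The target matched NUF2 and no other gene, at chr1:163328272-163328292 on the plus strand of GRCh38, in exon 4 of 14 of the NUF2-201 transcript. None of the 8 genes contained it, and the longest run of target bases in their transcripts was 7 to 9 bases. The seed site AGCAATT occurred 2 times in the 3′ UTR of ERBB4 and 1 time in that of ERRFI1, and 0 times in those of ERBB3, ERBB2, EGFR, LRIG1, LRIG3 and RNF41. By comparison, 10.5% of 18857 genes had at least 1 such site. A seed match is given as a description of the letters and not as a site of action.

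Total counts were 14115009 to 16995452 in the shNC libraries and 13057534 to 15227460 in the shNUF2 libraries. NUF2 itself had 63.5, 68.6 and 63.5 CPM (counts scaled to a common library size after TMM) with shNC and 20.8, 22.3 and 25.5 CPM with shNUF2, so every shNUF2 library was lower, as labelled. Its log2 fold change was -1.51 (SE 0.08, adjusted p = 2.17e-15, edgeR's quasi-likelihood test, Benjamini-Hochberg adjusted). Of 12 markers of ovarian carcinoma epithelium, 9 had at least 10 reads in every library, and their summed level was 6816 to 7323 CPM with shNC and 6163 to 6409 CPM with shNUF2. FOLR1 made up most of this sum, and of the 10 markers tested 5 rose and 4 fell at an adjusted p under 0.05 (edgeR's quasi-likelihood test), beside 33.9% and 33.8% of all genes, with a median log2 fold change of 0.17. FOLR1, the folate receptor of this tumor type, had a mean of 3499 FPKM (counts per gene length and library total) with shNC, and KRT7 (169), MSLN (153), KRT8 (49.5) and KRT18 (35.3 FPKM) were also abundant. In contrast, CDH1 had 0.230, KRT19 0.113, WT1 0.0024, MUC16 1.12, PAX8 1.39 and EPCAM 1.41 FPKM with shNC. With shNUF2 these were 0.136, 0.214, 0.0239, 0.651, 2.11 and 2.21 FPKM, so several of the listed markers were low or nearly absent in both groups. MUC16 was low per gene length, but had a mean of 48.6 CPM with shNC and 28.9 CPM with shNUF2. Markers of stroma summed to 84.4 to 90.7 CPM with shNC and 69.4 to 76.7 CPM with shNUF2, those of immune cells to 1.45 to 2.38 and 4.01 to 6.46 CPM, and those of endothelium to 1.75 to 3.38 and 3.41 to 4.92 CPM. COL1A1 made up most of the stromal sum and fell, whereas DCN rose from a mean of 3.66 to 8.48 CPM, and the 3 stromal markers tested had a median log2 fold change of 0.53. COL1A2, LUM, THY1 and CD3E had 3 reads or fewer in every library. The part of these differences in the results below was not tested, and in bulk RNA fewer cells of a kind and less RNA per cell cannot be told apart.

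Among the 8 genes, 5 passed an adjusted p of 0.05. ERRFI1 and LRIG1 were higher with shNUF2, ERBB3, RNF41 and ERBB2 were lower, and EGFR, ERBB4 and LRIG3 did not pass. The adjusted p put 2 of 8 genes higher, beside 33.9% of all genes tested, and 3 of 8 lower, beside 33.8%. With the study's thresholds, which were read here as a log2 fold change beyond 1 with p under 0.05 before adjustment, 2 of 8 were higher (ERRFI1 and LRIG1), beside 9.41% of all genes, and 1 of 8 was lower (ERBB3), beside 4.16%. In CPM, the libraries of both groups did not overlap for 2 genes that were higher, beside 35.2% of all genes, and for 3 that were lower, beside 35.4%. Counts of 2 and 3 among 8 genes are close to the shares of all genes, except at the study's thresholds, where they are above them but rest on 3 genes. The median log2 fold change of the 8 genes was -0.08 and that of all genes tested was -0.01.

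**Figure D1:**
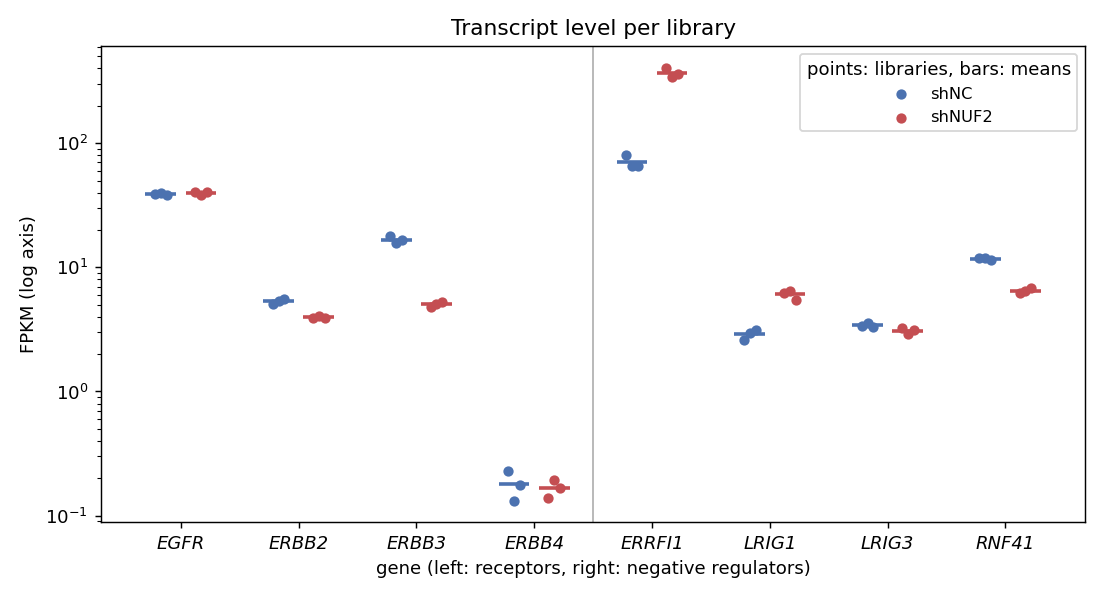
Level of each gene in FPKM (log axis) in the 3 shNC and 3 shNUF2 libraries, with points for libraries and bars for group means, receptors on the left and negative regulators on the right. ERRFI1 rose from 70.2 to 371 FPKM, ERBB3 fell from 16.7 to 5.07 FPKM, the points of EGFR and ERBB4 overlap between groups, and those of LRIG3 lie close together without overlapping on this scale.

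ERBB3 was the receptor with the largest change. ERBB3 (ENSG00000065361, chromosome 12 of GRCh38 from 56076799 to 56103505, plus strand) was counted 2223, 2188 and 2501 times in the shNC libraries and 588, 588 and 713 times in the shNUF2 libraries. After scaling these were 156, 137 and 145 CPM with shNC and 43.6, 45.2 and 47.4 CPM with shNUF2. Every shNUF2 library was far below every shNC library, and the shNUF2 libraries lay close together. The mean CPM was 3.22-fold lower with shNUF2, falling from 146 ± 9.75 to 45.4 ± 1.90 CPM (SD, n = 3 libraries per group). The log2 fold change was -1.68 (SE 0.06, adjusted p = 4.76e-19, edgeR's quasi-likelihood test, Benjamini-Hochberg adjusted), the 100th lowest of 12874 genes. Among the genes tested, the mean FPKM of ERBB3 moved from percentile 78.6 with shNC to percentile 46.6 with shNUF2. The gene overlaps AC034102.2 on the same strand, with which reads may be shared.

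ERBB2, the partner receptor without a ligand, fell by less. ERBB2 (ENSG00000141736, chromosome 17 from 39687914 to 39730426, plus strand) had 52.0, 54.1 and 56.9 CPM with shNC and 41.4, 42.2 and 41.1 CPM with shNUF2. The groups did not overlap, and the highest shNUF2 library was below the lowest shNC library. Its log2 fold change was -0.39 (SE 0.07, adjusted p = 9.56e-06, edgeR's quasi-likelihood test, Benjamini-Hochberg adjusted), so the 1.31-fold lower CPM passed the adjusted p but not the study's fold threshold. PGAP3 and MIEN1 overlap ERBB2 on the opposite strand. The log2 fold change of PGAP3 was -1.90 (SE 0.22) and that of MIEN1 was -0.27 (SE 0.17). The library kit was stranded, but the strand setting of the counting is not given in the sources used here, so that reads of ERBB2 and of these genes may not be fully separated. These 2 genes are named for their overlap, after their values were seen.

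EGFR, the receptor for EGF, TGFA and AREG, was the most abundant receptor and its difference did not pass the test. EGFR (ENSG00000146648, chromosome 7 from 55019017 to 55211628, plus strand) had 485, 487 and 473 CPM with shNC and 515, 485 and 517 CPM with shNUF2. Replicate 2 with shNUF2 lay within the shNC range and the other shNUF2 libraries lay above it. The log2 fold change was 0.07 (SE 0.04, adjusted p = 0.13, edgeR's quasi-likelihood test, Benjamini-Hochberg adjusted), with an approximate 95% interval from -0.01 to 0.15. When only genes with 1 CPM or more in all libraries were kept, it was 0.093 with an adjusted p of 0.0482 by the same edgeR test, so its side of the threshold depended on the filter.

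ERBB4, a neuregulin receptor with an active kinase, was barely present. ERBB4 (ENSG00000178568, chromosome 2 from 211375717 to 212538841, minus strand) received 42, 27 and 39 reads in the shNC libraries, against 25, 33 and 33 in the shNUF2 libraries, or 2.95, 1.69 and 2.27 CPM against 1.85, 2.54 and 2.19 CPM. The groups overlapped, and the difference was smaller than the spread between libraries. The log2 fold change was -0.06 (SE 0.29, adjusted p = 0.862, edgeR's quasi-likelihood test, Benjamini-Hochberg adjusted), with an approximate 95% interval from -0.63 to 0.51. Its sign changed when either of these libraries was left out: it was 0.14 without shNC replicate 1 and 0.04 without shNUF2 replicate 1.

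**Figure D2:**
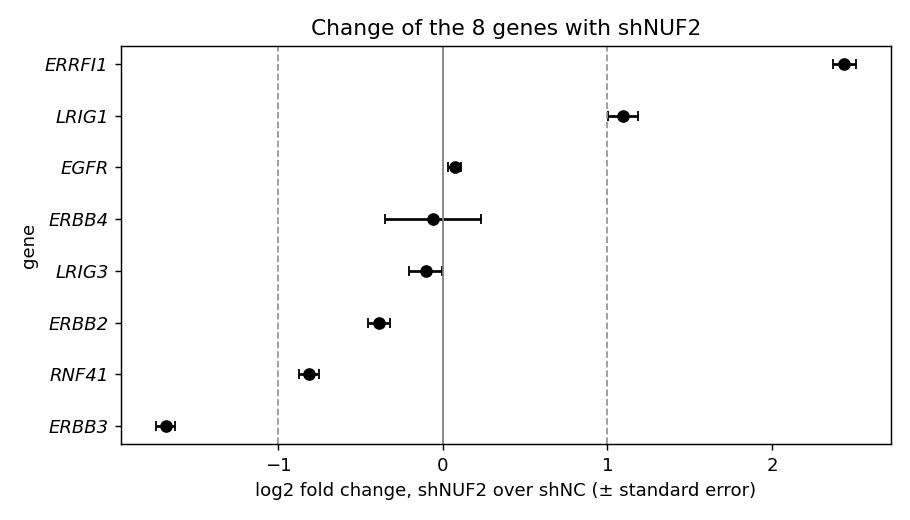
Log2 fold change of each of the 8 genes, shNUF2 over shNC, with bars for the standard error of the edgeR fit and dashed lines at the study's fold threshold. ERBB3 at -1.68 lies below the lower line, LRIG1 at 1.09 and ERRFI1 at 2.44 lie above the upper line, and the long bar of ERBB4 crosses 0.

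The makeup of the receptor transcripts therefore shifted from ERBB3 towards EGFR. In summed FPKM of the 4 receptors, ERBB3 made up 28.7%, 25.9% and 27.4% with shNC and 9.82%, 10.6% and 10.6% with shNUF2. The share of EGFR was 62.8%, 65.1% and 63.1% with shNC and 81.9%, 80.5% and 81.3% with shNUF2. For both receptors every library of one group lay apart from every library of the other (p = 0.10 by a two-sided exact permutation test, which cannot give a smaller p with 3 libraries per group). ERBB2 held 8.70 ± 0.513% with shNC and 8.10 ± 0.339% with shNUF2 (exact permutation test, p = 0.20, n = 3 per group), and ERBB4 held 0.292% and 0.340%. The summed FPKM itself was 61.2 ± 0.784 with shNC and 49.1 ± 1.13 with shNUF2 (SD, n = 3).

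Ratios within a library do not depend on the scaling between libraries, and 6 pairs of receptors were compared. The FPKM ratio of EGFR to ERBB3 had a geometric mean of 2.33 with shNC and 7.87 with shNUF2, a difference of 1.76 on the log2 scale. That of ERBB2 to ERBB3 was 0.318 and 0.784, a log2 difference of 1.30, so that ERBB3 had the higher FPKM in both groups. FPKM divides by 1 length per gene, 8837 bases for ERBB3 and 10321 for ERBB2. With shNUF2 the mean CPM of ERBB3 and ERBB2 were 45.4 and 41.6, so their order there depends on the lengths used. The change of a ratio between groups does not. For EGFR to ERBB2 the ratio was 7.32 and 10.04, a log2 difference of 0.46. These 3 ratios, and that of ERBB3 to ERBB4 with a log2 difference of -1.64, did not overlap between groups (exact permutation p = 0.10 each and 0.15 after Benjamini-Hochberg adjustment over the 6 pairs). EGFR to ERBB4 differed by 0.11 (exact permutation p = 0.80) and ERBB2 to ERBB4 by -0.34 (exact permutation p = 0.30), and both overlapped.

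**Figure D3:**
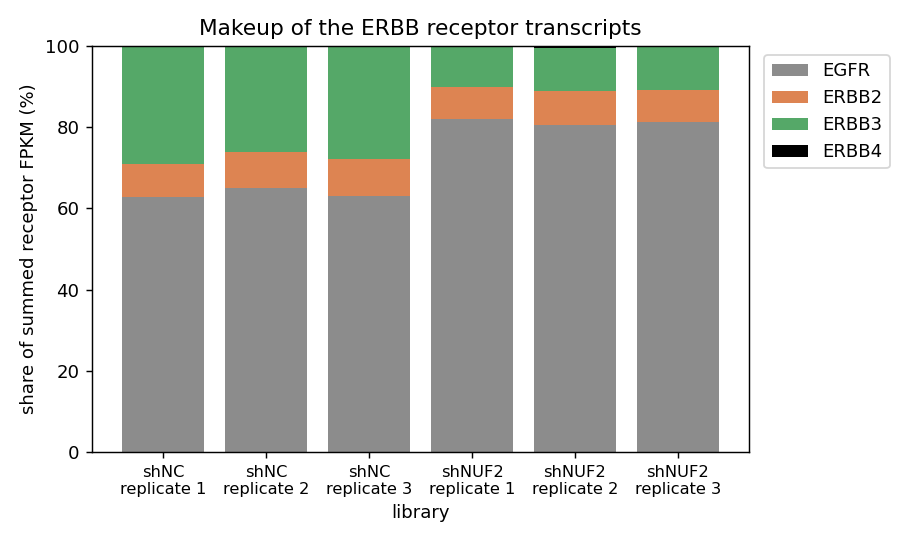
Share of each receptor in the summed FPKM of EGFR, ERBB2, ERBB3 and ERBB4, in percent, as stacked bars for each of the 6 libraries. The ERBB3 segment shrinks from 25.9% or more in the shNC libraries to 10.6% or less in the shNUF2 libraries, EGFR takes up most of each bar, and ERBB4 is under 1% and hardly visible.

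Among the regulators, ERRFI1 rose most. ERRFI1 (ENSG00000116285, chromosome 1 from 8004404 to 8026309, minus strand), the kinase inhibitor that is itself a target of EGFR signaling, had 4728, 4262 and 4643 reads in the shNC libraries, against 23452, 18795 and 22957 in the shNUF2 libraries. These were 333, 267 and 270 CPM with shNC and 1740, 1446 and 1526 CPM with shNUF2. No library of the groups overlapped, and replicate 1 was the highest within each group. The mean CPM was 5.42-fold higher with shNUF2, and the log2 fold change was 2.44 (SE 0.07, adjusted p = 4.15e-21, edgeR's quasi-likelihood test, Benjamini-Hochberg adjusted), the 234th highest of all genes tested. In FPKM it rose from 70.2 ± 8.66 to 371 ± 32.3 (SD, n = 3), from percentile 96.6 to percentile 99.6 of the genes tested. By FPKM, ERRFI1 was already the most abundant of the 8 transcripts with shNC, whereas EGFR had the higher mean CPM (482 against 290). An antisense gene, AL034417.4, overlaps the end of ERRFI1.

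LRIG1, the membrane protein that promotes receptor removal, was also higher with shNUF2. LRIG1 (ENSG00000144749, chromosome 3 from 66378797 to 66501263, minus strand) had 258, 330 and 374 reads in the shNC libraries, against 606, 595 and 587 in the shNUF2 libraries. Scaled to library size, these were 18.1, 20.7 and 21.7 CPM against 45.0, 45.8 and 39.0 CPM, with a wide gap between the groups. Its log2 fold change was 1.09 (SE 0.09, adjusted p = 3.14e-11, edgeR's quasi-likelihood test, Benjamini-Hochberg adjusted). It stood close to the study's fold threshold, and edgeR's TREAT test against that threshold gave an adjusted p of 0.525. SLC25A26, which overlaps the end of LRIG1 on the opposite strand, had a log2 fold change of 0.26 (SE 0.10).

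LRIG3 did not follow LRIG1. LRIG3 (ENSG00000139263, chromosome 12 from 58872149 to 58920504, minus strand) had 19.6, 20.7 and 19.1 CPM with shNC and 19.5, 17.1 and 18.5 CPM with shNUF2. The groups overlapped in CPM, since shNUF2 replicate 1 lay within the shNC range, whereas in FPKM the highest shNUF2 library (3.24) lay just below the lowest shNC library (3.28). LRIG3 had a log2 fold change of -0.10 (SE 0.10, adjusted p = 0.362, edgeR's quasi-likelihood test, Benjamini-Hochberg adjusted), with an approximate 95% interval from -0.30 to 0.09. The FPKM ratio of LRIG1 to LRIG3 was 0.853 ± 0.0900 with shNC and 1.97 ± 0.241 with shNUF2 (SD, n = 3).

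RNF41, the ubiquitin ligase of ERBB3, fell together with its substrate's transcript. RNF41 (ENSG00000181852, chromosome 12 from 56202179 to 56221933, minus strand) had 1091, 1212 and 1277 reads in the shNC libraries, against 558, 552 and 679 in the shNUF2 libraries, or 76.7, 75.8 and 74.2 CPM against 41.4, 42.5 and 45.1 CPM. All shNUF2 libraries lay well below the shNC libraries, which were within a narrow range. The log2 fold change was -0.81 (SE 0.06, adjusted p = 4.84e-12, edgeR's quasi-likelihood test, Benjamini-Hochberg adjusted), a 1.76-fold lower CPM that did not reach the study's fold threshold. As ERBB3 fell by more, the FPKM ratio of RNF41 to ERBB3 was higher with shNUF2, at 1.28 ± 0.00954 against 0.701 ± 0.0437 with shNC (SD, n = 3).

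Set against the receptors they act on, the transcripts of ERRFI1 and LRIG1 gained. The FPKM ratio of ERRFI1 to EGFR was 1.80 ± 0.223 with shNC and 9.29 ± 0.713 with shNUF2. LRIG1 had 0.0745 of the FPKM of EGFR with shNC and 0.152 with shNUF2. The ratio of LRIG1 to ERBB3 was 0.174 ± 0.0247 with shNC and 1.20 ± 0.144 with shNUF2 (SD, n = 3), so that in FPKM LRIG1 passed from below ERBB3 to above it in every library. In mean CPM, which is not divided by gene length, LRIG1 (43.3) stayed below ERBB3 (45.4) with shNUF2. These ratios restate the changes of their genes and were not tested.

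In FPKM, the order of levels with shNC was ERRFI1, EGFR, ERBB3, RNF41, ERBB2, LRIG3, LRIG1 and ERBB4, and no neighbors in this order had overlapping libraries. With shNUF2 the order was ERRFI1, EGFR, RNF41, LRIG1, ERBB3, ERBB2, LRIG3 and ERBB4, where RNF41 (6.50 ± 0.318 FPKM) and LRIG1 (6.06 ± 0.521 FPKM) overlapped and the other neighbors did not. ERBB3 thus moved from the third to the fifth place and LRIG1 from the seventh to the fourth.

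Transcription factors linked to ERBB genes changed in both directions. Of 12 such factors, 10 were tested, of which 4 rose and 4 fell at an adjusted p under 0.05 (edgeR's quasi-likelihood test), shares near the 33.9% and 33.8% of all genes, with a median log2 fold change of -0.03. Both AP-2 factors, known as activators of ERBB2 and ERBB3 in breast cancer, changed in opposite directions. TFAP2A fell from 105, 112 and 103 CPM with shNC to 40.5, 43.2 and 49.2 CPM with shNUF2 (log2 fold change -1.27, SE 0.06). TFAP2C rose from 12.7, 12.0 and 12.7 CPM to 33.5, 32.9 and 32.9 CPM (log2 fold change 1.41, SE 0.09). FOXO3, a factor that induces receptor genes when AKT is inactive, had a log2 fold change of 0.90 (SE 0.06). No libraries of the groups overlapped for these 3 factors.

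Promoters were read from RefSeq on GRCh38.p14 for 7 of the 8 genes (all but ERBB3), over 300 bases from 250 before to 50 after the start. EGFR, LRIG3 and RNF41 had 2 entries each and LRIG1 had 4, of which only the one nearest the 5′ end of the gene was used. The windows were searched on both strands for 4 motifs. These were the AP-2 motif GCCNNNGGC, the FOXO motif GTAAACA, the AP-1 motif TGANTCA and the ETS motif CCGGAAGT. The promoters of EGFR and ERBB2 are shown because they held most of the matches, with the matches in capitals.
EGFR: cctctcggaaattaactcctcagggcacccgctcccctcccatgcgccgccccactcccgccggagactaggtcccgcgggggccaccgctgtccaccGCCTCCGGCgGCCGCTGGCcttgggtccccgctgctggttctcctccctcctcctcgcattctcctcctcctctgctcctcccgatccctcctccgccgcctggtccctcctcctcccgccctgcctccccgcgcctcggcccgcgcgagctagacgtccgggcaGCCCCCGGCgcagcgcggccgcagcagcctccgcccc
ERBB2: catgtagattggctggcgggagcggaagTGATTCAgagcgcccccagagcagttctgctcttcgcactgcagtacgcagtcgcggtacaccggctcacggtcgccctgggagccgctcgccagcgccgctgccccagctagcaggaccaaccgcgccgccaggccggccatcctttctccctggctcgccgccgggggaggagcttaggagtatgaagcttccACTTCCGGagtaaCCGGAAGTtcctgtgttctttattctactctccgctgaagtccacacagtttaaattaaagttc
These windows are chr7:55018767-55019066 and chr17:39687844-39688143, both on the plus strand. The ERBB2 window lies at the 5′ end of the gene. Other starts within the gene were not searched, so a motif absent from this window may be present at them. EGFR held 3 AP-2 matches, a motif present in 23.2% of 35116 promoters. ERBB2 held 1 AP-1 match (7.71% of promoters) and 2 ETS matches on opposite strands (4.14% of promoters), whereas the FOXO motif (3.42% of promoters) matched none of the 7. LRIG3 held 1 AP-2 match, and ERBB4, LRIG1, ERRFI1 and RNF41 had 0 matches to the 4 motifs in these windows. No matches overlapped one another, and a match describes the letters alone.

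Most ligands of the receptors that could be tested rose with shNUF2. Of 11 ligands, 7 were tested, 6 rose at an adjusted p under 0.05 (33.9% of all genes did), 5 of these rose beyond the study's fold threshold (9.41% of all genes), and none fell. Their median log2 fold change was 1.86, the value of NRG1, against -0.01 for all genes. AREG and NRG1 passed the filter on low counts only through the shNUF2 libraries, so these counts and the median describe the ligands tested and not all 11. EREG, a ligand of EGFR and ERBB4, had 38.9, 37.0 and 39.9 CPM with shNC and 224, 211 and 219.8 CPM with shNUF2 (log2 fold change 2.50, SE 0.05). TGFA, a ligand of EGFR, rose from 43.8, 40.2 and 42.3 CPM to 97.9, 94.6 and 91.0 CPM (log2 fold change 1.17, SE 0.06). Both were clearly expressed in each group and did not overlap.

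HBEGF, AREG, NRG1 and EPGN had few reads with shNC. HBEGF had 1.83, 4.005 and 2.03 CPM with shNC and 12.0, 12.9 and 11.8 CPM with shNUF2 (log2 fold change 2.21, SE 0.21), and AREG rose from 0.774, 0.626 and 0.465 CPM to 6.38, 7.62 and 5.98 CPM (log2 fold change 3.42, SE 0.29). NRG1, a ligand of ERBB3 and ERBB4, had under 1 CPM in every shNC library and 2.89, 2.69 and 1.86 CPM with shNUF2 (log2 fold change 1.86, SE 0.38). NRG4, a ligand of ERBB4, had 17.9 ± 1.6 CPM with shNC and 22.3 ± 2.0 CPM with shNUF2 (SD, n = 3), and rose by 0.31 (SE 0.10) on the log2 scale. EPGN had a log2 fold change of 0.97 (SE 0.53, adjusted p = 0.108 in the edgeR quasi-likelihood fit), and EGF, BTC, NRG2 and NRG3 had too few reads to be tested. With a filter of 1 CPM in every library, 3 ligands passed the study's thresholds in place of 5.

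**Figure D4:**
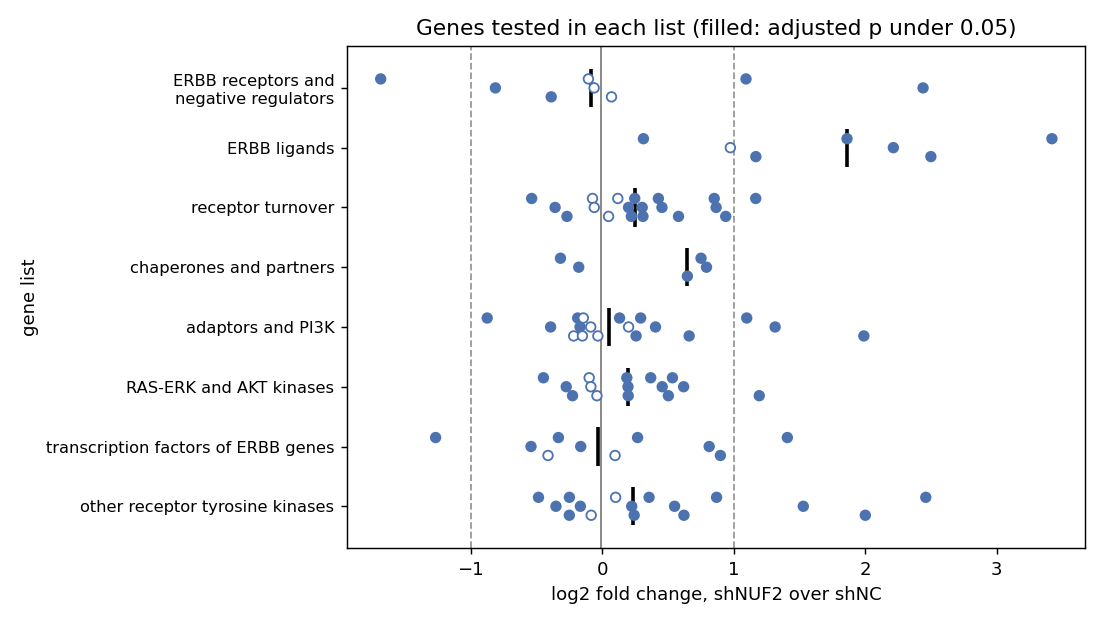
Log2 fold change, shNUF2 over shNC, of every tested gene in each list, with filled points for an adjusted p under 0.05, black bars for list medians, a gray line for the median of all genes and dashed lines at the study's fold threshold. All 7 ligands lie above 0, whereas the points of the receptors and regulators lie on both sides, from -1.68 to 2.44.

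Genes of receptor turnover, which ubiquitinate, sort or recycle the receptors, rose more often than they fell, and mostly by small amounts. Of 20 listed, 19 were tested, 12 rose and 3 fell at an adjusted p under 0.05, beside 33.9% and 33.8% of all genes, and the median log2 fold change was 0.25. Whether this list differs from other genes was not tested. CBLB, a ubiquitin ligase of EGFR, was the only one beyond the study's fold threshold, with 24.3, 24.03 and 23.3 CPM with shNC and 53.9, 54.2 and 52.6 CPM with shNUF2 (log2 fold change 1.17, SE 0.07). HGS, an endosomal sorting protein, rose by 0.94 (SE 0.05) and the ubiquitin ligase NEDD4L by 0.87 (SE 0.06) on the log2 scale. USP8, the deubiquitinase that stabilizes RNF41, fell by 0.36 (SE 0.07) on the log2 scale.

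Of 6 chaperones and binding partners, 5 were tested, and 3 rose and 2 fell at an adjusted p under 0.05, beside 33.9% and 33.8% of all genes. All 3 tested chaperone genes, CDC37, HSP90AB1 and HSP90AA1, which support ERBB2 folding, rose with log2 fold changes of 0.79, 0.75 and 0.65. The partners PA2G4, a protein that binds ERBB3, and ERBIN, which binds ERBB2, had log2 fold changes of -0.32 and -0.18. None passed the study's fold threshold. MUC4, a partner of ERBB2, had too few reads to be tested. HSP90 genes have many pseudogenes with which their reads may be shared.

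Adaptors and PI3K subunits showed no common direction. Of 18 tested, 8 rose and 4 fell at an adjusted p under 0.05, beside 33.9% and 33.8% of all genes, with a median log2 fold change of 0.05. PIK3R1, a regulatory subunit of PI3K, rose from 0.703, 0.563 and 0.698 CPM to 3.12, 3.15 and 1.66 CPM (log2 fold change 1.99, SE 0.37). It had few reads in both groups and passed the filter on low counts only through the shNUF2 libraries. GRB7, an adaptor encoded next to ERBB2, rose from 12.9, 9.82 and 12.2 CPM to 29.6, 28.8 and 28.4 CPM (log2 fold change 1.32, SE 0.11), and GAB2 had a log2 fold change of 1.10 (SE 0.08). VAV2, an exchange factor, had the lowest value, at -0.87 (SE 0.04).

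The kinases downstream moved in both directions. Of 15 genes of the RAS-ERK and AKT cascades, all were tested, 9 rose and 3 fell at an adjusted p under 0.05, beside 33.9% and 33.8% of all genes, and the median log2 fold change was 0.20. AKT2 fell by 0.45 (SE 0.04) on the log2 scale, and MAPK3 (ERK1) rose by 0.62 (SE 0.07). These are transcript levels and do not measure phosphorylation.

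Other receptor tyrosine kinases gave a reference for the ERBB receptors. Of 17 such receptors, 16 were tested, 9 rose and 5 fell at an adjusted p under 0.05, beside 33.9% and 33.8% of all genes, and the median log2 fold change was 0.23. MERTK, DDR2 and FGFR1 were higher beyond the study's fold threshold, with log2 fold changes of 2.46, 2.00 and 1.53, and 0 were lower beyond it. The lowest value was that of AXL, at -0.48 (SE 0.04), which is smaller in size than the change of ERBB3 at -1.68. MERTK had under 2 CPM in every library and passed the filter on low counts only through the shNUF2 libraries.

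ERBB3 and RNF41 lie 98.7 kb apart on chromosome 12, and the genes around them were examined. Of 30 genes with a start or end within 250 kb of ERBB3, 26 were tested, 5 rose and 12 fell at an adjusted p under 0.05, beside 33.9% and 33.8% of all genes, and the median log2 fold change was -0.17 against -0.01 for all genes. None of the 26 fell beyond the study's fold threshold, and ERBB3 at -1.68 lay outside their range of -0.92 (PMEL) to 1.02 (IL23A). PA2G4, the nearest tested gene downstream, was at -0.32, RPL41 at -0.36 and RPS26 upstream at -0.13. SUOX (-0.76) and RNF41 (-0.81) came next to PMEL among those that fell. Around ERBB2, 9 of 16 genes were tested, and they ranged from -1.90 (PGAP3) to 1.32 (GRB7). Around RNF41, 25 of 32 were tested, with 3 higher and 12 lower at an adjusted p under 0.05, beside 33.9% and 33.8% of all genes. Most of these 25 are also in the ERBB3 window, and ERBB3 itself is among the 12, so this is not a separate result. Around ERRFI1, 5 of 6 were tested, with 1 higher and 2 lower by the same criterion. LRIG1 had 1 tested neighbor and EGFR had 2.

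**Figure D5:**
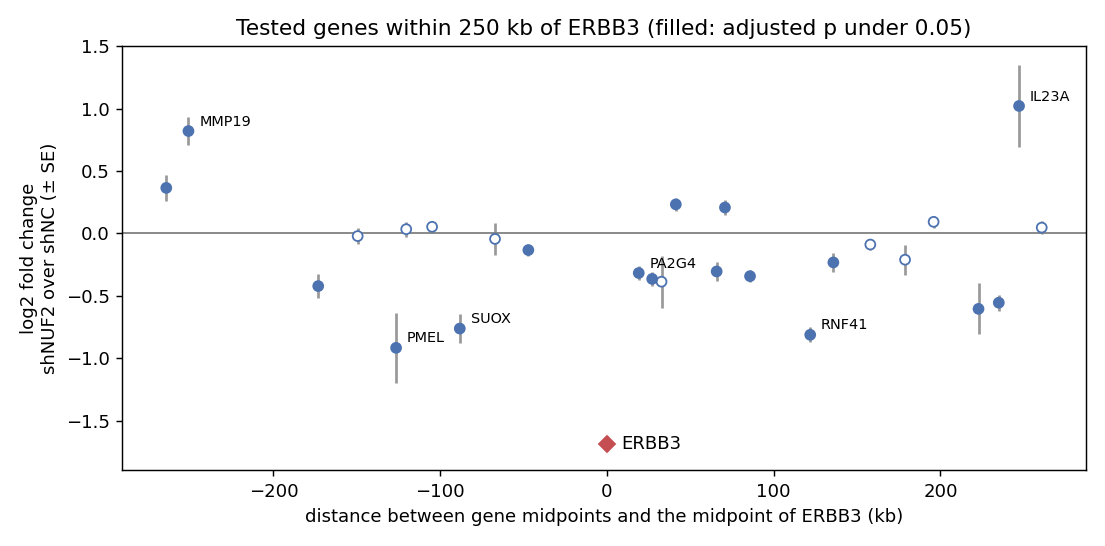
Log2 fold change, shNUF2 over shNC, of the 26 tested genes within 250 kb of ERBB3 against the distance of gene midpoints in kb, with bars for the standard error and filled points for an adjusted p under 0.05. ERBB3 (red diamond) lies at -1.68, below every neighbor, and RNF41 lies at -0.81.

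Only genes averaging 1 log2 CPM or more were ranked for likeness to ERBB3. Those whose levels across the 6 libraries were most like that of ERBB3 were AKR1C2, SLC45A4, PC, SLC7A5 and LMO4, by the distance between their log2 CPM profiles after centering. Their distances were 0.132, 0.158, 0.173, 0.188 and 0.189, and their log2 fold changes were -1.75, -1.68, -1.68, -1.68 and -1.78. AKR1C2 has near-identical paralogs, so that its counts are uncertain. With 6 libraries in 2 groups, such a likeness mostly restates a change of the same size.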

How the data were processed

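Libraries were prepared from OVCAR3 RNA with a stranded mRNA kit. Per the labels, the submitters' processing notes name cutadapt, HISAT and HTSeq and the genome build GRCh38.p13; the strand setting is not given in the sources used here. The authors deposited unnormalized read counts per gene, and also FPKM, in which each count is scaled by gene length and library total. Groups and replicate numbers came from the labels. All 6 libraries were fitted together with edgeR 4.0.16 in R 4.3.3 (filterByExpr, TMM scaling, quasi-likelihood test, no covariate), with Benjamini-Hochberg adjustment over the 12874 genes tested. Standard errors came from the fold change and the F statistic, and 95% intervals are normal approximations. FPKM was used for levels between genes, for ratios and for shares. The biological coefficient of variation was 4.93%. Exact permutation tests of 3 libraries against 3 cannot go below 0.10.

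The study gives its thresholds as a fold change and a p; they were read here on the log2 scale and without adjustment. The members, gene lists and tests were chosen with earlier results of these data known. Named genes were the 8 members, NUF2, listed genes past the study's thresholds or leading their list, genes near ERBB3 and the 5 nearest profiles among genes averaging at least 1 log2 CPM, together with genes that overlap a member, the named markers, and NRG4, EPGN, USP8, ERBIN, VAV2, AKT2 and AXL, which were chosen after their values were seen. Some listed genes are not reported here by name. Target and seed sites and the kinase loop were read from GENCODE release 29, and promoters from RefSeq. The fit was tested on simulated counts. Alternatives were 3 other scalings, DESeq2 1.42.0, other filters, a replicate block, each library left out, limma 3.58.1 on log2 FPKM with 1 or 0.1 added, and edgeR's TREAT test. Python 3.11.15 served for the other calculations, with scipy 1.17.1, numpy 2.4.6, pandas 2.3.3 and matplotlib 3.10.9.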

Additional observations from a re-analysis of the deposited data

How the results depend on the processing

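The log2 fold changes of ERBB3 (-1.73 to -1.55 over 16 alternatives), ERRFI1 (2.36 to 2.55), LRIG3 (-0.15 to -0.06) and NUF2 (-1.60 to -1.42) kept their direction and their side of the threshold. Those of ERBB2, LRIG1 and RNF41 did so except under TREAT, edgeR's test against the fold threshold itself, where the values of -0.39, 1.09 and -0.81 no longer passed. LRIG1 was 0.86 with limma after adding 1 FPKM, a construction that shrinks low values, so that 1 regulator rather than 2 was higher past the study's thresholds there and under TREAT. EGFR passed the adjusted p with the filter of 1 CPM in every library (0.093), where fewer genes were tested. ERBB4 turned to 0.14 without shNC replicate 1 and 0.04 without shNUF2 replicate 1, over a range of -0.24 to 0.14 with single libraries left out. The difference between groups (shNUF2 minus shNC) in the log2 ratio of EGFR to ERBB4 ranged from -0.080 to 0.33. Over all genes, 1212 higher and 536 lower calls at the study's thresholds became 756 higher with the 1 CPM filter, 430 and 206 with limma after adding 1 FPKM, and 680 and 211 under TREAT. Of 434 counts of called genes in the lists, 422 stayed within 1.5 times. Adaptors that fell numbered 7 rather than 4 with library totals only or with no filter. At the study's thresholds, limma after adding 1 FPKM left 1 rather than 3 adaptors and 1 rather than 3 other receptor tyrosine kinases higher, the 1 CPM filter left 3 rather than 5 ligands, and no filter gave 1 rather than 0 chaperones and partners and 2 rather than 1 transcription factors. CBLB did not pass the fold threshold with limma after adding 1 FPKM or with TREAT.

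The deviations of same-numbered libraries from their group means correlated at 0.02, 0.00 and -0.03, so the values showed no pairing by number. Whether such libraries shared a culture or preparation cannot be told from this. With the replicate block, ERBB3 was -1.68, ERRFI1 2.44, LRIG1 1.09, RNF41 -0.81 and ERBB2 -0.39, and 1207 genes were higher and 536 lower at the study's thresholds. Few reads limit the precision for ERBB4, with 25 to 42 reads per library, and for the scarce ligands.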
